A study of Homo sapiens with 12 samples.

Results

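The comparison described here set U2OS cells that carried a guide against NUP93 (NUP93-KO) beside cells that carried a nontargeting guide (NONT), both left without drug. Its fold changes rest on 4 of the 12 libraries in the series, 2 for each guide, taken by their labels, and all 12 libraries entered the estimate of the spread between replicates. U2OS is a human osteosarcoma line. All cells, controls included, had been transiently transfected with a plasmid that carries Cas9, one guide RNA and puromycin resistance, and were kept as pooled populations, so none of the groups is a clone, and those with a targeting guide may mix edited and unedited cells. The labels call the untreated cells DMSO. The other libraries came from cells with an EXOSC5 guide without drug (EXOSC5-KO, 2 libraries), and from all 3 genotypes after 8 h of 1 μM triptolide, a compound that blocks initiation by RNA polymerase II. Per the study's methods, NUP93 and EXOSC5 cells were selected in puromycin for 2 days and expanded for 1 day, whereas cells with the other guides, which include NONT, were selected for 3 days and expanded for 2 days. In NUP93-KO against NONT the guide and this schedule therefore cannot be told apart, and EXOSC5-KO is the group that shared the schedule of NUP93-KO.

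NUP93 is a scaffold protein of the nuclear pore complex, the channel through which mRNA leaves the nucleus and proteins enter it. It sits in the inner ring with NUP188, NUP205, NUP155 and NUP35, and anchors the central channel proteins NUP62, NUP54 and NUP58, which form the barrier of the pore. The study used its loss to slow the decay of mRNA when transcription is blocked. The comparison without drug asks what the knockout had already changed in the mRNA of the cells before the drug was added.

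The guide matched 1 place in the genome exactly. It is shown because it is the designed difference between the 2 groups. The 20 bases lie at chr16:56748340-56748359 on the plus strand of GRCh38, within exon 2 of the 22 exons of NUP93, and all 20 bases are coding. The expected cut falls after base 56748356, which leaves 109 of the 2457 coding bases, or 4.44%, before it. The first line gives the guide with the adjoining bases of the genome that Cas9 needs (the PAM) in capitals, and the second gives 80 bases of the exon, chr16:56748310-56748389, with the guide's target in capitals.
Guide and PAM: gaacttacaggagatccagcAGG
Exon 2 around the site: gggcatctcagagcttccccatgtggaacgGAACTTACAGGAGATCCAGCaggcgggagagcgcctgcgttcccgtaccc
Allowing up to 3 mismatches beside a PAM, 16 further places in the genome matched, 2 of them with 2 mismatches and 14 with 3, and none of the 16 lay in a coding exon.

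The deposited values are read estimates per gene divided by a size factor from ERCC spike-in RNAs, which were added in proportion to the cells counted, so a library's sum over genes follows mRNA per cell. On this scale the 2 controls stood apart from each other. The gene totals were 11.321 M and 16.446 M in NONT and 12.004 M and 13.248 M in NUP93-KO (M stands for 1 followed by 6 zeros), so both knockout libraries lay between the controls. The mean total of NUP93-KO was 12.6 M ± 0.880 M (SD, n = 2) against 13.9 M ± 3.62 M (n = 2), a ratio of 0.909 that ran from 0.730 to 1.17 over the 4 pairings of libraries. Without the second NONT library the ratio was 1.12, so its direction rested on that library. An exact two-sided permutation test gave p = 1, where 2 libraries against 2 allow no p below 0.333. In these bulk samples a lower sum from less mRNA per cell and one from an error in the cell count or the spike-in volume cannot be told apart. Depth was similar, at about 9.38 M to 11.9 M reads per library. Because of the gap between the controls, each gene was also compared after all libraries had been multiplied to the same gene total of 13.5 M. This scale shows a gene's share of the library's mRNA and moved the median log2 fold change over all genes by 0.113, from −0.086 on the spike-in scale to 0.027. Nothing says that the 2 replicates of a group came from separate cultures, so p-values measure only the spread between these samples, which may be technical.

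**Figure D1:**
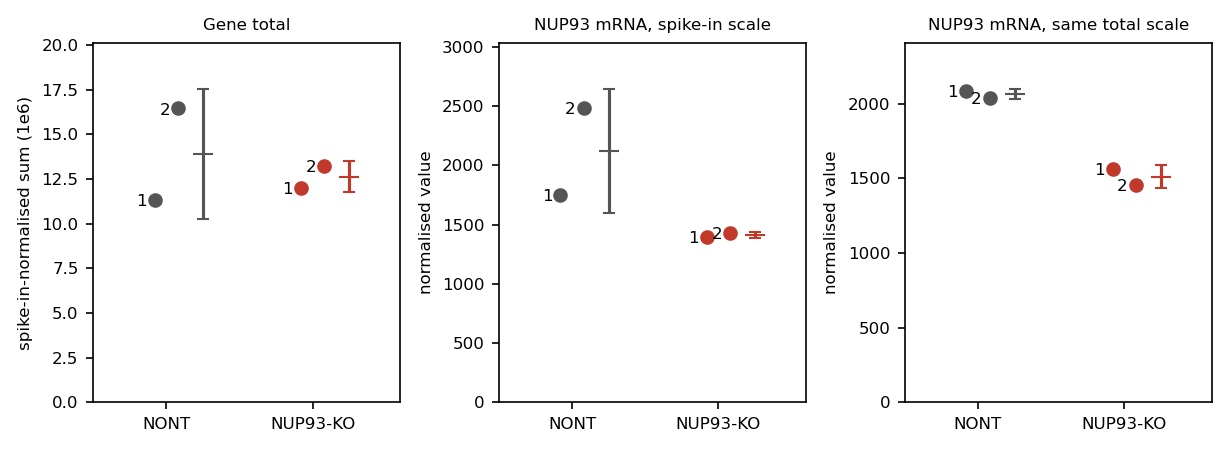
Sum over genes in M (left) and the value of NUP93 on the spike-in scale (middle) and the same-total scale (right) in NONT (grey) and NUP93-KO (red) without drug. Points are libraries numbered by replicate, and the bar beside them is the mean ± SD; the totals of the knockout, 12.004 M and 13.248 M, lie between the controls, whereas NUP93 is lower in both knockout libraries on either scale.

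The targeted gene was lower in both knockout libraries. NUP93 (ENSG00000102900, chromosome 16, 56730118 to 56850286, plus strand) had same-total values of 2086 and 2039 in NONT and 1565 and 1456 in NUP93-KO. Neither knockout library reached a control. The log2 fold change was −0.45 ± 0.089 (SE), and its adjusted p of 0.05003 (limma, Benjamini-Hochberg over 13811 genes) was just above the threshold of 0.05. On the spike-in scale the values were 1753 and 2489 in NONT and 1395 and 1432 in NUP93-KO, again without overlap, as for 20.7% of all genes tested on that scale (log2 fold change −0.56 ± 0.20 (SE), adjusted p = 0.926). After triptolide, in libraries that entered the test without drug through the spread alone, the same-total values were 2285 and 2472 in NONT and 1313 and 1562 in NUP93-KO, and the log2 fold change was −0.73, adjusted p = 0.00186. On the spike-in scale the triptolide libraries overlapped, at 1007 and 899 in NONT and 801 and 1019 in NUP93-KO. In EXOSC5-KO without drug, whose guide was directed at another gene, NUP93 had same-total values of 1688 and 1626, also under both controls, and the test did not separate the 2 knockouts (log2 difference −0.13, adjusted p = 0.525). The estimate counts edited transcripts along with unedited ones, so it does not measure how much NUP93 protein was left.

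The other inner ring genes were measured well and did not pass the test. NUP205 had same-total values of 1601 and 1768 in NONT and 1502 and 1317 in NUP93-KO (log2 fold change −0.26 ± 0.10 (SE), adjusted p = 0.367), and NUP155 had 1756 and 1772 in NONT and 1611 and 1527 in NUP93-KO (log2 fold change −0.17 ± 0.074 (SE), adjusted p = 0.449). Both sat lower in the knockout libraries without overlap, as 44.5% of all genes tested did in one direction or the other. NUP188, with 3799.7 and 3778 in NONT and 3828 and 3373 in NUP93-KO, and NUP35, with 316 and 364 in NONT and 248 and 307 in NUP93-KO, overlapped or nearly met between the groups (log2 fold changes −0.076 and −0.30, adjusted p = 0.803 and 0.779). Among the central channel genes the log2 fold changes were −0.23 for NUP62, −0.10 for NUP54 and −0.07 for NUP58 (adjusted p = 0.505, 0.875 and 0.968). The signs for NUP188 and NUP58 were not stable when single libraries were left out. Of the 32 nuclear pore genes tested none passed on either scale, 8 had a log2 fold change above 0 on the same-total scale, and their median was −0.13 against 0.027 over all genes. SEH1L, an outer ring gene, had the smallest p of the list after NUP93 (−0.24 ± 0.074, adjusted p = 0.239). The receptors and Ran cycle genes that carry cargo through the pore gave no call among 30 tested (median −0.049), with KPNB1, the main import receptor, at −0.14 ± 0.05, adjusted p = 0.324, and NUTF2, which returns Ran to the nucleus, at −0.26 ± 0.07, adjusted p = 0.166. None of 25 mRNA export genes passed (median −0.050), and the members with the smallest p were DDX19A (log2 fold change 0.17) and FYTTD1 (0.18). Of all genes tested 0.949% were called on the same-total scale, and 0.0145% higher and 0.00724% lower on the spike-in scale. At these shares, lists of this size without a call are not shown to be unchanged.

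Across all genes, the spike-in scale called 2 genes higher (0.0145%) and 1 lower (0.00724%) of 13811 tested, at an adjusted p under 0.05. The gene called lower was CNN1, described below. The genes called higher were TCN2, a vitamin B12 carrier, and ENSG00000250264, a gene of chromosome 6 with no symbol, both outside the rule for named genes and named here after their values were seen. Both were listed at 0 in the 2 NONT libraries and at 67.8 and 26.5 (TCN2) and 31.2 and 35 (ENSG00000250264) in NUP93-KO, so no fold is given. TCN2 was above 0 in both NONT libraries after triptolide (40.6 and 8.04). In EXOSC5-KO without drug both genes were above 0 too. Their same-total values there were 69.9 and 14.4 (TCN2) and 57.0 and 72.6 (ENSG00000250264), and the test did not separate the 2 knockouts. At an unadjusted p under 0.05 the spike-in scale gave 242 genes higher and 338 lower.

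The same-total scale called 83 genes higher (0.601%) and 48 lower (0.348%), together 0.949% of the genes tested. In all 131 the groups did not overlap, as in 44.5% of all genes tested, and the sign was the same on the spike-in scale. There 98 had an unadjusted p under 0.05. The 131 were called on these same libraries, so neither feature adds support. The largest fall among the called genes was that of TTC39A, with 32.8 and 65.3 in NONT and 1.35 and 6.02 in NUP93-KO, values below the 100 asked of genes named by rule. The median absolute log2 fold change was 0.75 among the higher genes and 0.46 among the lower ones, and 99 of the 131 were below 1. In 8 cases the ID had no match in the annotation, and 129 of the 131 rows were distinct. The number of calls depended on every library: it fell to between 21 and 29 higher and between 10 and 23 lower when any 1 of the 4 libraries was left out, with 33 calls in all without either NONT library, 52 without the first NUP93-KO library and 37 without the second. With the other 8 libraries left out of the fit there were 2 higher and 4 lower. Of the 32 called genes that are named by rule, 6 passed in all 4 fits with 1 library left out (CNN1, TPM1, TAGLN, KRT17, ENPP1 and TNFRSF11B), 9 in some of them and 17 in none.

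**Figure D2:**
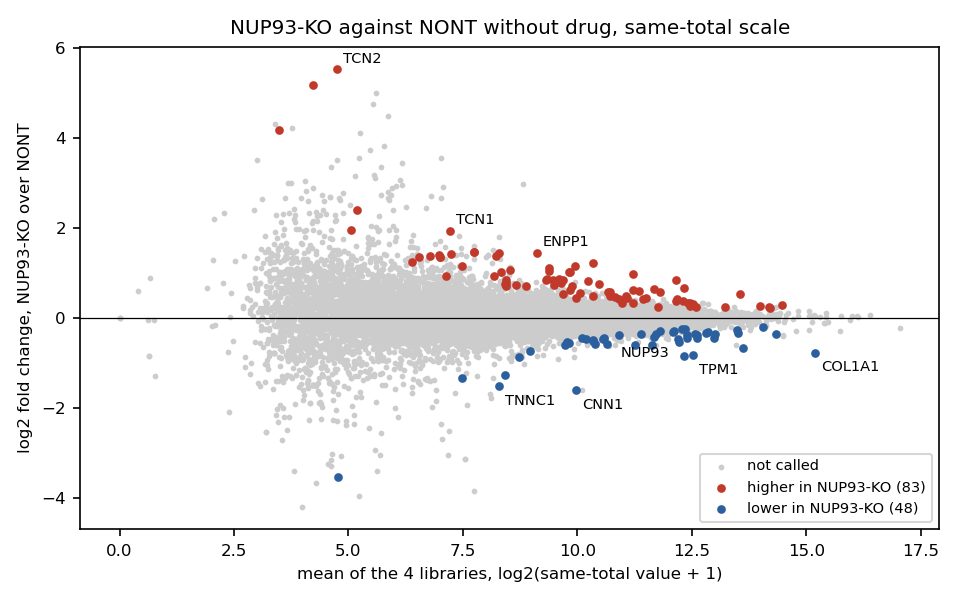
Log2 fold change of NUP93-KO over NONT without drug (vertical) against the mean of the 4 libraries as log2(same-total value + 1) (horizontal), 1 point per gene tested. The 83 genes called higher (red) and 48 called lower (blue) are mostly within 1 log2 unit of 0, and the targeted gene NUP93 lies just outside the calls.

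Among called genes with a mean of at least 100 in either group, the 4 that fell furthest were CNN1, TNNC1, TNNT2 and PDLIM1, all of which encode proteins of the actin and contractile apparatus. CNN1, calponin, which binds actin and restrains myosin in smooth muscle, had same-total values of 1568 and 1445 in NONT and 474 and 515 in NUP93-KO (log2 fold change −1.61 ± 0.095 (SE), adjusted p = 6.02e-05). Both knockout libraries were under both controls, and CNN1 was the gene called on the spike-in scale too, with 1317 and 1764 in NONT and 422 and 506 in NUP93-KO (log2 fold change −1.72 ± 0.21 (SE), adjusted p = 0.00246). TPM1, a tropomyosin that coats actin filaments, had 7518 and 7559 in NONT and 4158 and 4359 in NUP93-KO (log2 fold change −0.82 ± 0.043 (SE), adjusted p = 3.83e-05). TAGLN, transgelin, an actin-bundling protein, had 6295 and 6872 in NONT and 3554 and 3806 in NUP93-KO (log2 fold change −0.84 ± 0.061 (SE), adjusted p = 1.92e-04). In all 3 the replicates of a group lay close together compared with the distance between the groups. MYL9, a myosin regulatory light chain, fell less, from 5403 and 5501 to 4482 and 4657 (log2 fold change −0.25 ± 0.05 (SE), adjusted p = 0.048). These 4 were the calls among 13 tested members of a list of contractile targets of the transcription factor SRF. Of all genes tested, 0.348% were called lower. MYL9 is not among the genes listed above that passed with any 1 library left out. In the list 3 members had a log2 fold change above 0, and the median was −0.25 (−0.37 on the spike-in scale). In EXOSC5-KO against NONT the median of the list was −0.22. SRF itself was at 0.041, and ACTA2, smooth muscle actin, at 0.49 (adjusted p = 0.26), so the members did not share 1 sign.

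Beyond that list the lower genes included 2 troponins of striated muscle. TNNC1 had 443 and 482 in NONT and 145 and 178 in NUP93-KO (log2 fold change −1.52 ± 0.19 (SE), adjusted p = 0.00568), and TNNT2 had 245 and 261 in NONT and 89.5 and 109.7 in NUP93-KO (log2 fold change −1.34 ± 0.22 (SE), adjusted p = 0.0221). PDLIM1, an adaptor at actin filaments, had 503 and 462 in NONT and 220.2 and 183 in NUP93-KO (log2 fold change −1.26 ± 0.15 (SE), adjusted p = 0.00439). In each, both knockout libraries were below both controls, by more than the gap between the replicates of either group. AQP1, a water channel, was at −0.86 ± 0.11, adjusted p = 0.00625, ANXA8L1, an annexin, at −0.74 ± 0.12, adjusted p = 0.0198, and KRT17, a keratin, at −0.66 ± 0.048, adjusted p = 1.92e-04, the last from 15244 and 15659 to 9964 and 9539.5. Of the genes in this paragraph only KRT17 is among those listed above that passed with any 1 library left out.

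Of the matrix genes, 2 collagens fell. COL1A1, a chain of type I collagen, had 46646 and 47173 in NONT and 26460.2 and 28597 in NUP93-KO (log2 fold change −0.77 ± 0.096 (SE), adjusted p = 0.00595). COL12A1, which decorates collagen fibrils, had 2686 and 3218 in NONT and 1862 and 2013 in NUP93-KO (log2 fold change −0.60 ± 0.099 (SE), adjusted p = 0.0221), and LOXL1, an enzyme that cross-links elastin, had 1017 and 1026 in NONT and 655 and 694 in NUP93-KO (log2 fold change −0.60 ± 0.094 (SE), adjusted p = 0.018). These 2 collagens were the calls among 18 matrix genes, where 0.348% of all genes were called lower. COL1A1, COL12A1 and LOXL1 are not among the genes listed above that passed with any 1 library left out. Of the 18, 8 had a log2 fold change above 0 (median −0.074). COL6A1 lay highest at 0.42 (adjusted p = 0.0749). No YAP target of 12 passed, where 0.949% of all genes were called in either direction. AXL was at −0.24 ± 0.058, adjusted p = 0.105 and TEAD1 at −0.42 ± 0.10, adjusted p = 0.122.

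The genes that rose furthest, by the same rule, were led by TCN1 and SAA1. TCN1, a vitamin B12 binding protein, had 66.8 and 51.3 in NONT and 172 and 300.1 in NUP93-KO (log2 fold change 1.94 ± 0.28 (SE), adjusted p = 0.0122). SAA1, an acute phase protein, had 102 and 125 in NONT and 297 and 328 in NUP93-KO (log2 fold change 1.46 ± 0.18 (SE), adjusted p = 0.00595), and the unmatched ID ENSG00000288411 carried the identical row, so the pair is 1 measurement. ENPP1, a phosphodiesterase of the cell surface that limits mineral deposition, had 330.2 and 260.4 in NONT and 803 and 807 in NUP93-KO (log2 fold change 1.45 ± 0.15 (SE), adjusted p = 0.00282). TNFRSF11B, osteoprotegerin, a decoy receptor that restrains bone resorption, had 170.0 and 163 in NONT and 451 and 463 in NUP93-KO (log2 fold change 1.45 ± 0.15 (SE), adjusted p = 0.00282). ENPP1 and TNFRSF11B had knockout replicates within a few percent of each other, while the TCN1 replicates of the knockout were further apart than those of the control. OLAH, a thioesterase of fatty acid synthesis, was at 1.39 ± 0.21, adjusted p = 0.0154, GREB1, an oestrogen-responsive gene, at 1.39 ± 0.26, adjusted p = 0.0402, KYNU, an enzyme of tryptophan breakdown, at 1.36 ± 0.24, adjusted p = 0.0308, and CACNA2D4, a calcium channel subunit, at 1.36 ± 0.21, adjusted p = 0.018. The unmatched ID ENSG00000284953 repeated the CACNA2D4 row. Of the genes named by rule here, ENPP1 and TNFRSF11B alone are among those listed above that passed with any 1 library left out. At higher levels, and picked after their values were seen, IGFBP5, a binding protein of insulin-like growth factors, went from 1551 and 1650.2 to 3125 and 3146 (0.97 ± 0.08, adjusted p = 4.65e-04), and SERPINA1, alpha-1-antitrypsin, from 800.0 and 767 to 1756 and 1875 (1.21 ± 0.081, adjusted p = 1.45e-04).

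**Figure D3:**
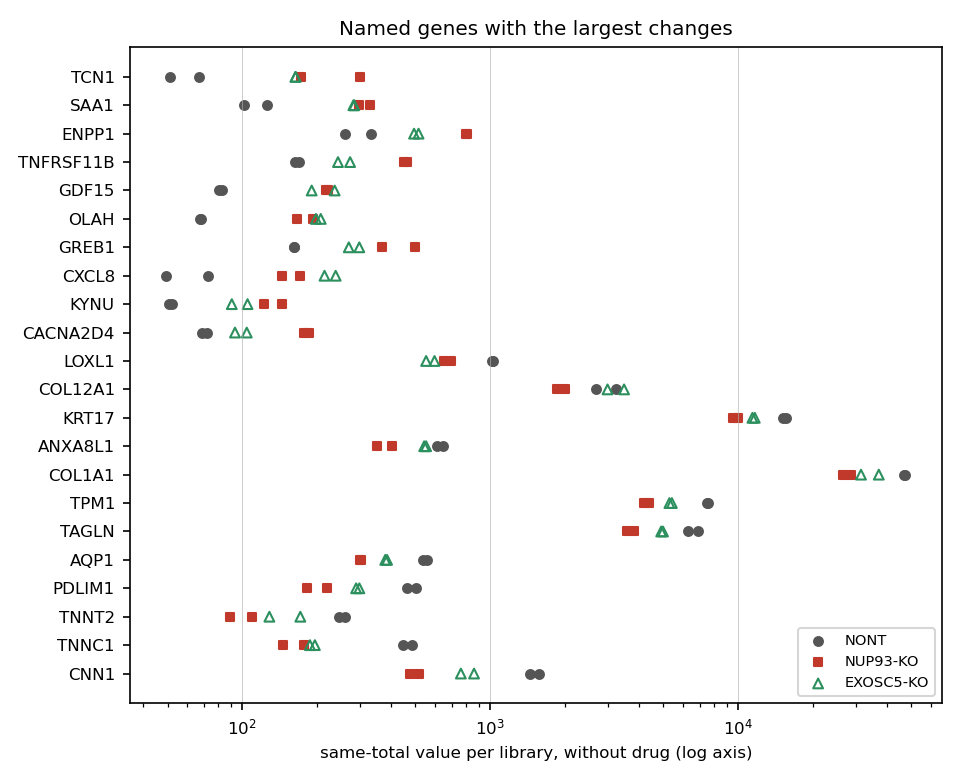
Same-total value in each untreated library (log axis) for the genes with the largest changes that have a symbol, in NONT (grey circles), NUP93-KO (red squares) and EXOSC5-KO (open green triangles), 2 libraries each. Genes run from the largest fall (CNN1, bottom) to the largest rise (TCN1, top). The NONT and NUP93-KO points do not overlap in any row because the rule that chose these genes required it.

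Of the targets of p53, the transcription factor that answers DNA damage, 2 rose. GDF15, a stress-induced cytokine, had 83 and 80.4 in NONT and 222 and 218 in NUP93-KO (log2 fold change 1.42 ± 0.24 (SE), adjusted p = 0.0266), and FDXR, a mitochondrial reductase, had 1823 and 1711 in NONT and 2513 and 2472 in NUP93-KO (log2 fold change 0.50 ± 0.092 (SE), adjusted p = 0.036). These were the 2 calls among 30 tested members, where 0.601% of all genes were called higher. A log2 fold change above 0 on the same-total scale was found in 27 of the 30 and in 54.9% of all genes, and the median of the list was 0.20 (0.086 on the spike-in scale). Neither gene passed when any 1 of the 4 libraries was left out or at the same mitochondrial mRNA sum. CDKN1A, the cell cycle inhibitor p21, was at 0.22 (adjusted p = 0.0834), and MDM2, which degrades p53, at 0.26 (adjusted p = 0.559). In EXOSC5-KO against NONT the median of the p53 list was 0.47 (0.045 over all genes), further from 0 than in NUP93-KO. Between the knockouts 3 members were called lower in NUP93-KO and 0 higher, where 1.51% and 1.53% of all genes were.

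Of the genes of sterol synthesis, 2 fell. HMGCS1, which makes the precursor of mevalonate, had 5815 and 6315 in NONT and 4628 and 4637 in NUP93-KO (log2 fold change −0.39 ± 0.052 (SE), adjusted p = 0.00828), and FDPS, which makes farnesyl diphosphate, had 3744 and 3788 in NONT and 2919 and 2962 in NUP93-KO (log2 fold change −0.36 ± 0.052 (SE), adjusted p = 0.0128). Of 19 members tested these 2 passed, where 0.348% of all genes were called lower. A log2 fold change below 0 was found in 18 of the 19 and in 45.1% of all genes, and the median of the list was −0.35 (−0.46 on the spike-in scale). CYP51A1, a demethylase of lanosterol, was at −0.53 (adjusted p = 0.0723), and SREBF2, the transcription factor of the pathway, at −0.20 (adjusted p = 0.136). SCD, a fatty acid desaturase that is no member, was called at −0.35. At the same mitochondrial mRNA sum neither HMGCS1 nor FDPS passed, and of the 4 fits with 1 library left out HMGCS1 passed in the one without the first NONT library and FDPS in none.

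The integrated stress response list gave 2 calls of 14, both lower: ATF4, its central transcription factor, with 8309.9 and 7589 in NONT and 6231 and 6334 in NUP93-KO (log2 fold change −0.34 ± 0.063 (SE), adjusted p = 0.0383), and MTHFD2, a mitochondrial folate enzyme, with 4749 and 4984 in NONT and 4043 and 3954 in NUP93-KO (log2 fold change −0.28 ± 0.052 (SE), adjusted p = 0.0355). DDIT3, another member, was at 0.71 (adjusted p = 0.585), and the median was −0.24 (−0.19 in EXOSC5-KO against NONT). Of all genes, 0.348% were called lower and 0.601% higher. IFITM3, which blocks viral entry, was the single call of 18 interferon-stimulated genes (856 and 827 in NONT and 1174 and 1115 in NUP93-KO, log2 fold change 0.44 ± 0.08 (SE), adjusted p = 0.0308), and CXCL8, interleukin 8, that of 9 NF-kappaB targets (72.8 and 49.5 in NONT and 171 and 144 in NUP93-KO, log2 fold change 1.37 ± 0.25 (SE), adjusted p = 0.0343). The medians of the last 2 lists were 0.46 and 0.28, where all genes had 0.027. In EXOSC5-KO against NONT they were 0.35 and 0.37. The interferon list was scattered, with extremes of −1.91 (RIGI) and 3.11 (IFIT3), and 8 of its 26 genes were not tested. Under triptolide its median was 0.11, with 10 of 18 above 0. None of ATF4, MTHFD2, IFITM3 and CXCL8 passed when any 1 of the 4 libraries was left out or at the same mitochondrial mRNA sum, and IFITM3 did not pass with median of ratios either.

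The lists that follow held no call on either scale, where 0.949% of all genes were called in either direction on the same-total scale. The genes named by rule are the 2 of each list with the smallest p, and others lay further from 0. Picked after their values were seen, HSPA1B was at −3.95, the lowest of the chaperones, and was not called, while 10 of the 13 chaperones were above 0. POLR2A was at −1.54, the lowest of the RNA polymerase II subunits, and was not called either, while 8 of the 12 subunits were above 0. Of 24 mitosis genes 2 had a log2 fold change above 0 (median −0.14), with KIF20A at −0.23 ± 0.097, adjusted p = 0.41 and CDK1 at −0.19 ± 0.088, adjusted p = 0.498, while 26 DNA replication genes had a median of −0.038, with RRM2 at −0.18 and MCM7 at −0.13. Of 80 cytosolic ribosomal protein genes 73 were above 0 on the same-total scale, but their median, 0.071, turned to −0.043 on the spike-in scale (RPL13A 0.16, RPS19 0.14). The signs also turned between the scales for heat shock chaperones (0.10 and −0.014, with HSP90AA1 0.25 and HSPB1 −0.22), immediate early genes (0.080 and −0.034, with JUNB 0.54 and FOSL1 0.53), glycolysis (0.061 and −0.053, with HK1 0.20 and TPI1 0.082), RNA polymerase II subunits (0.029 and −0.085, with POLR2L 0.25 and POLR2H 0.23) and mitochondrially encoded mRNAs (0.066 and −0.048, with MT-ND4 0.16 and MT-ND3 −0.18). For the machinery of mRNA decay the medians were −0.084 over 24 RNA exosome genes and cofactors (SKIC3 −0.41, EXOSC1 0.41) and −0.065 over 27 cytoplasmic decay genes (CNOT1 −0.34, EDC4 −0.15). For 18 ribosome biogenesis genes the median was −0.083 (POLR1A −0.44, UTP20 −0.36), for 17 BCL2 family genes 0.17 (PMAIP1 0.42, BCL2A1 1.39) and for 415 numbered zinc finger genes −0.015 (ZNF114 1.40, ZNF404 −0.43). The 20 replication-dependent histone genes tested had a median of 0.20 (H1-2 0.36, H2BC4 1.11), and 46 of the 66 listed were not tested. Their median was 0.82 in EXOSC5-KO against NONT and −0.17 in NUP93-KO against NONT under triptolide.

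**Figure D4:**
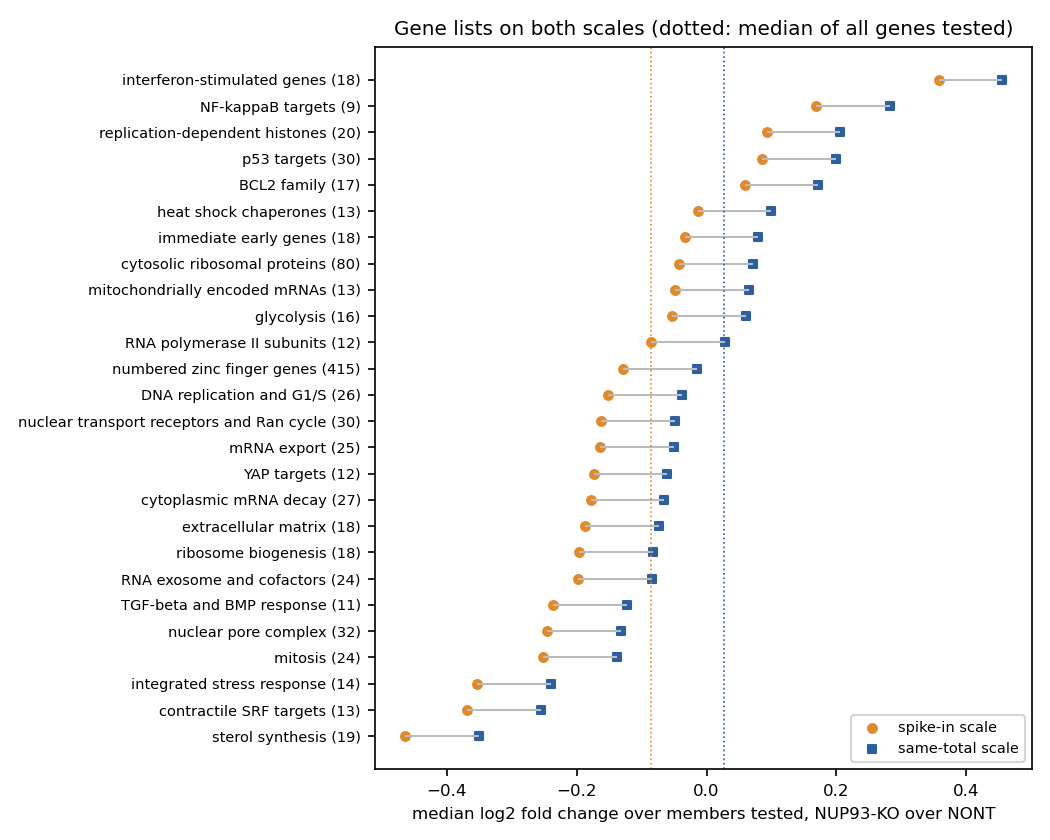
Median log2 fold change of NUP93-KO over NONT without drug for each gene list other than the cell type markers (number of members tested in brackets), on the spike-in scale (orange circles) and the same-total scale (blue squares), with the median of all 13811 genes dotted for each. Of the lists drawn, sterol synthesis lies lowest (−0.46 and −0.35) and interferon-stimulated genes highest (0.36 and 0.46), and for the lists near 0 the sign depends on the scale.

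Markers of the cell type were checked on the same-total scale. Of 9 mesenchymal and osteoblast markers all were above the filter, among them VIM (54367 and 54861 in NONT, 57671 and 55454 in NUP93-KO), whereas COL1A2 was near the filter at 12.1 to 24.4. Of 6 epithelial markers 4 were tested, none above 74.3 in these libraries (KRT14 0.60, EPCAM −0.23), of 5 blood markers 1 (CD68, 0.92 ± 0.21, adjusted p = 0.0977) and of 5 neural and melanocytic markers 1 (TUBB3, −0.20 ± 0.063, adjusted p = 0.246). No marker but COL1A1 passed the test.

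Whether the changes were seen again was examined in the 4 triptolide libraries of the same guides. Their values do not enter the fold changes without drug, but they entered the common estimate of the spread behind the calls. Each gene has the same spread estimate in both tests, so genes called for a small spread pass more readily in both. The share called in both states is thus no independent support. These libraries also had the same guides and selection schedules, so guide and schedule cannot be told apart here either. On the same-total scale, 126 of the 131 genes had the same sign under triptolide, against 59.5% of all genes tested, and 103 were called with that sign (67 higher, 36 lower), against 6.15% of all genes called in either direction (3.77% higher, 2.38% lower). CNN1 had 1609 and 1546 in NONT and 634 and 596 in NUP93-KO (log2 fold change −1.36, adjusted p = 8.96e-05), TPM1 had 10343 and 10195 in NONT and 5895 and 5900.1 in NUP93-KO (−0.80, adjusted p = 4.71e-05), and TNFRSF11B had 223 and 259 in NONT and 734 and 954 in NUP93-KO (1.79, adjusted p = 3.25e-04). On the same-total scale the groups stayed apart in each of these, and the share of all genes that did so under triptolide was not counted. The median log2 fold change of the higher genes was 0.75 without drug and 0.71 with it, and that of the lower genes −0.46 and −0.44. On the spike-in scale the median log2 fold change over all genes under triptolide was 0.66, and there 94 of the 131 kept the sign, against 38.1% of all genes, 12 of the 48 lower genes among them, while TAGLN was at 0.039. TPM1 overlapped there, with 4558 and 3706 in NONT and 3599 and 3851 in NUP93-KO (log2 fold change −0.14), while CNN1 and TNFRSF11B stayed apart. Over all genes the 2 sets of fold changes correlated at r = 0.151 on the same-total scale, which describes genes within shared libraries and is given without a test.

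The 5 genes with the other sign were COL12A1, PODXL, SLC2A3, GUCY1A2 and ENSG00000250264, singled out after their values were seen. COL12A1 was called in both states with opposite signs. Under triptolide it had 2449 and 2239 in NONT and 3190.5 and 3198 in NUP93-KO (log2 fold change 0.45, adjusted p = 0.0266), so the knockout lay above the control there and under it without drug. The test of the difference between the 2 states gave an adjusted p of 0.0634 on the same-total scale and 0.0273 on the spike-in scale, where it passed. LOXL1 was called without drug and was at −0.19, adjusted p = 0.274 under triptolide, where the difference had an adjusted p of 0.38.

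**Figure D5:**
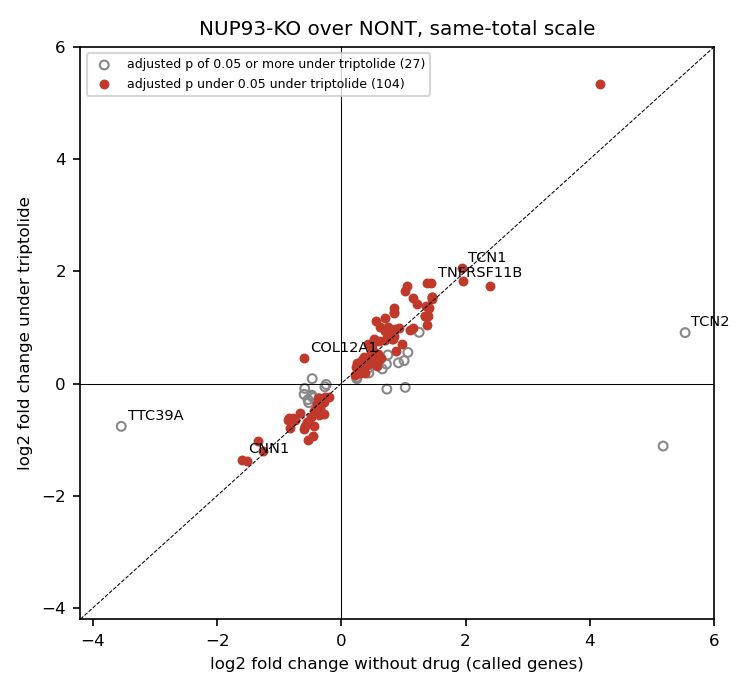
Log2 fold change of NUP93-KO over NONT under triptolide (vertical) against that without drug (horizontal) for the 131 genes called without drug, on the same-total scale; filled points had an adjusted p under 0.05 under triptolide too, and the dashed line marks equal values. Of the 131 points 126 lie in the quadrants of equal sign, whereas on the spike-in scale 94 would.

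NUP93-KO was then set against EXOSC5-KO, which had the same schedule of selection. EXOSC5 is a subunit of the RNA exosome. On the same-total scale 211 genes were higher in NUP93-KO (1.53%) and 208 lower (1.51%) of all 13811, 3.03% in all. Of the 131 genes called against NONT, 36 differed from EXOSC5-KO. Both comparisons share the NUP93-KO libraries. The other 95 did not pass, which does not show that the knockouts were alike. CNN1 was at 861 and 762 in EXOSC5-KO, between NONT and NUP93-KO (log2 difference −0.71, adjusted p = 0.00463). The same held for TAGLN with 4981 and 4899 (log2 difference −0.43, adjusted p = 0.00599), TPM1 with 5288 and 5409 (log2 difference −0.33, adjusted p = 0.00456) and KRT17 with 11682 and 11431 (log2 difference −0.25, adjusted p = 0.0266). Among the higher genes, ENPP1 with 494 and 515 (log2 difference 0.67, adjusted p = 0.0436), TNFRSF11B with 244 and 273 (log2 difference 0.82, adjusted p = 0.0203) and IGFBP5 with 2064 and 2034 (log2 difference 0.61, adjusted p = 0.00455) were also intermediate in EXOSC5-KO. On the spike-in scale fewer genes differed between the knockouts, 3 higher (0.0217%) and 37 lower (0.268%), and CNN1 (adjusted p = 0.15), TAGLN (0.457) and TPM1 (0.538) were not among them.

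For other genes the value in EXOSC5-KO was close to NONT. ANXA8L1 was at 542 and 552 (log2 difference −0.55, adjusted p = 0.0383) and COL12A1 at 3469.8 and 2977 (log2 difference −0.73, adjusted p = 0.0048), both higher than in NUP93-KO. HMGCS1 was at 6524 and 6801 (log2 difference −0.52, adjusted p = 0.00135), above both other groups. For GDF15, at 236 and 191, the values of the knockouts overlapped (log2 difference 0.05, adjusted p = 0.965). OLAH (207 and 198), CXCL8 (238 and 215), SAA1 (283 and 281) and TNNC1 (196 and 188) were likewise at levels that the test did not separate from NUP93-KO, with log2 differences of −0.17, −0.52, 0.14 and −0.25. MTHFD2 lay lower still in EXOSC5-KO (3093 and 3215, log2 difference 0.34, adjusted p = 0.00822).

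Position and gene structure were examined as descriptions. The 229 genes tested beyond NUP93 towards the end of the long arm of chromosome 16 had a median same-total log2 fold change of −0.011, the 347 before it 0.046, and the 37 within 2 Mb of the cut 0.069. The calls were 1 lower beyond NUP93 and 2 higher before it, where 0.348% of all genes were called lower and 0.601% higher. Such counts are too small to show an effect of position. The called genes had higher values than most, which are not divided by gene length, with median same-total values of 916 for the higher and 3452 for the lower genes against 341 over all genes tested. Their median transcript length was 2259 and 3052 bases against 3448, and their median GC content 51.2% and 53.2% against 48.1%. Over all genes with an annotation (94.1%), fold change ran weakly upwards with GC content (Spearman 0.10) and weakly downwards with transcript length (−0.11), across genes that share the same 4 libraries. The part of GC content and length in the calls was not tested.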

How the data were processed

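mRNA abundance was measured by poly(A) RNA sequencing with ERCC spike-ins in 12 libraries, 2 in each of 6 groups taken from the sample labels. Per the study's methods the authors pseudoaligned reads with kallisto (version 0.46.1 in the submitters' processing notes, which also name GRCh38), summed estimates to genes, restricted the table to protein-coding genes and scaled each library by a DESeq2 size factor computed from the ERCC transcripts. The values the authors deposited are thus a spike-in-normalised signal, not read counts, and an error in cell number or spike-in volume moves a whole library. Reads are split among transcripts, so whole reads were not recovered, no count model was used, and genes with near-identical copies are uncertain. The worth of 1 read, from the lowest ERCC values, put depth at about 9.38 M to 11.9 M reads in the 4 libraries compared.

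Of 22379 genes (92 ERCC rows left out), 13811 entered the tests because their average across the 6 untreated libraries was 10 or more, 816 of them without a match in GENCODE 44. Identical values were shared by 474 rows. Values were analysed as log2(value + 1), which understates the change of low genes, both as deposited and after scaling each library to the mean gene total of the 6 untreated libraries. A model of 6 group means over all 12 libraries was fitted with limma 3.58.1 in R 4.3.3 (eBayes with trend), with two-sided tests and Benjamini-Hochberg adjustment over all genes. An adjusted p under 0.05 was called. The fit was tested on simulated data. Summaries used Python 3.11.15, NumPy 2.4.6, pandas 2.3.3 and matplotlib 3.10.9.

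Named genes were NUP93, the inner ring and central channel genes, up to 12 genes per direction and scale with the largest change among called genes whose average reached 100 in NUP93-KO or NONT and whose groups did not overlap, and from each list up to 4 called members by p-value, or else the 2 with the smallest p. Others are marked, and some genes are not reported here. The comparison and the gene lists were chosen with earlier results of these data known. Guide matches were searched in GRCh38.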

Additional observations from a re-analysis of the deposited data

Results flagged for a closer look

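For 2 genes the difference between NUP93-KO and NONT was itself different with and without triptolide on the same-total scale (limma, interaction of guide and drug, adjusted over 13811 genes, 2 called or 0.0145%). MYC, a short-lived transcription factor mRNA, had 1035 and 1172 in NONT and 1215 and 1183 in NUP93-KO without drug, and 5.42 and 4.78 against 44.6 and 51.5 under triptolide. Its log2 fold change was 2.88 higher under the drug (adjusted p = 0.0131). GADD45A, a growth arrest gene, had 768 and 766 in NONT and 959 and 1066 in NUP93-KO without drug, and 57.5 and 61.9 against 235 and 238 under triptolide, a difference of 1.57 (adjusted p = 0.0202). Without drug neither gene was called (log2 fold changes 0.12 and 0.40). With log2(value + 10) neither interaction passed (adjusted p = 0.0707 for both, with differences of 1.82 and 1.43), and GADD45A did not pass with a replicate block (adjusted p = 0.0595).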

How the results depend on the processing

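On the same-total scale the calls (83 higher, 48 lower) became 34 and 24 with the 6 untreated libraries only, 2 and 4 with the NUP93-KO and NONT libraries only, 25 and 7 without the trend, and 10 and 6 at the same mitochondrial sum, and leaving out 1 library gave 21 to 29 higher and 10 to 23 lower. With median of ratios they were 67 and 60. The other alternatives stayed within 1.5 times. On the spike-in scale (2 higher, 1 lower) they were 11 and 7 with log2(value + 10), 4 and 4 with a mean of at least 50, 1 and 1 with no filter, 62 and 51 with untreated libraries only, 35 and 34 with NUP93-KO and NONT only, 1 and 0 without the trend, 7 and 5 with robust eBayes, and 7 and 5 with identical rows kept once and unmatched IDs left out. Leaving out 1 library gave 3 to 11 higher and 1 to 11 lower. The causes were not tested. TPM1 and CNN1 passed on the same-total scale in all 17 alternatives (largest adjusted p 0.0421 and 0.0295), and ENPP1, TNFRSF11B, TAGLN and KRT17 in 16.

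NUP93 on the same-total scale passed in 6 of 17 alternatives (adjusted p 0.0426 to 0.581) and in none of the 4 with 1 library left out (0.134 to 0.273). It passed at −0.45 with log2(value + 10), a mean of at least 50, robust eBayes, and identical rows kept once with unmatched IDs left out, at −0.49 with median of ratios, and at −0.45 with the mean of 12 libraries as target, an alternative chosen after seeing the data. The ratio of totals was 0.768 to 1.12 with 1 library left out. Against EXOSC5-KO the spike-in scale gave 3 higher and 37 lower (211 and 208 on the same-total scale), under triptolide 5788 and 26 (520 and 329), and for the interaction 105 and 2 (2 and 0). The interaction gave 0 higher with log2(value + 10) and 1 with the replicate block. As reported it gave 0 lower, where 730 higher and 608 lower had an unadjusted limma p under 0.05.

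The deviations between replicates correlated at 0.018 between NONT and NUP93-KO, which cannot show whether samples with 1 replicate number shared a day or culture. With a replicate block there were 64 higher and 40 lower, 99 of them shared with the 131 called without it, and 3 and 1 on the spike-in scale.

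Genes that did not pass and changed sign when 1 library was left out ranged on the same-total scale as follows: EPCAM −0.47 to 0.015, MT-ND3 −0.41 to 0.054, NUP188 −0.17 to 0.015 and NUP58 −0.23 to 0.095. On the spike-in scale they were DDX19A −0.16 to 0.27, EDC4 −0.56 to 0.026, EPCAM −0.77 to 0.091, FYTTD1 −0.26 to 0.40, HK1 −0.25 to 0.42, HSP90AA1 −0.20 to 0.47, KPNB1 −0.55 to 0.0499, MCM7 −0.55 to 0.068, MT-ND3 −0.65 to 0.061, MT-ND4 −0.37 to 0.45, NUP188 −0.46 to 0.075, NUP54 −0.49 to 0.061, NUP62 −0.74 to 0.051, POLR2H −0.11 to 0.34, POLR2L −0.17 to 0.43, RPL13A −0.21 to 0.31, RPS19 −0.21 to 0.26, RRM2 −0.61 to 0.022, TPI1 −0.34 to 0.27 and TUBB3 −0.64 to 0.017. Among the 32 called genes named by rule on the same-total scale none changed sign.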
